A study of Mus musculus with 6 samples.

Results

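Genes of the Sonic hedgehog (Shh) pathway, taken as a fixed list of names and not by any measured value, were followed through single-cell RNA-seq of mouse limb buds at E11.5. The 8 members, out of 15668 genes with a row in both count matrices, were the ligand Shh, the receptor genes Ptch1 and Smo, the ligand-binding antagonist Hhip, the transcription factor genes Gli1, Gli2 and Gli3, and Hand2. The study compared embryos carrying engineered rearrangements of the Lbx1/Fgf8 locus, modelled on split-hand/foot malformation type 3, with wild-type embryos. The 6 libraries formed 6 groups of 1 library each: hindlimb of homozygous Dup embryos (a tandem duplication, labelled C57BL/6) and hindlimb of C57BL/6 wild-type embryos, hindlimb of homozygous Inv1 embryos (an inversion, made in the G4 embryonic stem cell line) and hindlimb of G4 wild-type embryos, and the forelimbs of the same Inv1 and G4 genotypes. G4 is a 129sv/C57Bl6 hybrid stem cell line, and mutant mice were made by aggregation of edited stem cells with diploid or tetraploid embryos. Whether a library held 1 embryo or several pooled embryos is stated neither in the labels nor in the methods. With 1 library per group, no difference between genotypes, limbs or strains had a replicate check, so intervals between libraries cover counting error only.

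In the limb bud, Shh is secreted by a small posterior domain of mesenchyme, the zone of polarizing activity, and patterns the digits across the bud. Without ligand, PTCH1 holds SMO inactive and GLI3 is cut into a repressor. With ligand, SMO signals to the GLI factors, and Ptch1, Hhip and Gli1 are themselves transcribed in responding cells, so that Ptch1 and Hhip feed back by binding ligand. HAND2 is a bHLH factor of the posterior mesenchyme that acts upstream of Shh, and GLI3 and HAND2 are known to oppose each other along the anterior-posterior axis.

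The sequence that GLI proteins bind best, GACCACCCA or TGGGTGGTC on the other strand, was looked for around the start of each member gene, since Ptch1, Gli1 and Hhip are classical targets. In the RefSeq promoter windows of build GRCm38.p6 (250 bases before to 50 after the start), the 9 letters were found in 83 of 32851 windows (0.253%) and in 0 of the 6 members with a window. Shh and Gli1 had no matched window and were not searched. In wider windows of build NCBIM37 (2000 bases upstream to 500 downstream of protein-coding starts), 465 of 22380 windows (2.08%) held the 9 letters and 1 of the same 6 members did. That member was Ptch1 (chr13:63610261-63674474, minus strand), with the match centred 303 bases upstream of the annotated gene start. The match is shown with 50 bases on each side, at chr13:63674723-63674831 of NCBIM37, read along the minus strand as Ptch1 is transcribed, with the 9 letters in capitals.
Ptch1: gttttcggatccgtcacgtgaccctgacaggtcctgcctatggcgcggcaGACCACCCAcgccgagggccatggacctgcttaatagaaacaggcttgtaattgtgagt
A match of letters is a description of the window and was not set against any measure of binding. On the same build, Shh lies at chr5:28783355-28793641 on the minus strand, Gli1 at chr10:126766945-126778645 (minus), Gli2 at chr1:120730709-120950196 (minus), Gli3 at chr13:15555068-15821859 (plus), Hhip at chr8:82490014-82581905 (minus), Smo at chr6:29685694-29711365 (plus) and Hand2 at chr8:59799780-59803314 (plus).

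Of 26486 cells, 24891 with over 2000 detected genes were kept, holding 22.7 M to 59.4 M UMIs per library at a median of 6729 to 10098 UMIs per cell. UMIs are the counted molecules, and they were scaled to counts-per-million (CPM) of the class in its library. By the deposited annotation 22760 cells were mesenchyme, 4253 in Dup, 2025 in C57BL/6 wild type, 5384 and 5191 in Inv1 and G4 wild-type hindlimb, and 3337 and 2570 in Inv1 and G4 wild-type forelimb. Finer mesenchyme classes (autopod, zeugopod, stylopod, chondrocyte progenitors, muscle connective tissue) were given for the Dup and C57BL/6 hindlimbs. Cell barcodes found in more than 1 library made up 0.479% to 1.02% of a library. Because classes were made by clustering on genes that include these members, differences between classes are descriptions.

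Shh itself was rare, and most of its UMIs were in mesenchyme, which is also most of the cells. A Shh UMI was detected in 358 of 22760 mesenchyme cells (1.57%, Clopper-Pearson 95% interval 1.42 to 1.74), which together held 827 Shh UMIs with at most 13 in 1 cell. Outside mesenchyme, 8 of 2131 cells (0.375%, 0.162 to 0.738) held 10 UMIs. Whether these UMIs came from free RNA, doublets or the cells themselves was not tested. AER cells, the ectodermal ridge at the rim of the bud, had a Shh UMI in 0 of 205 cells, which allows a share of up to 1.46% by 3 counts of the total (Clopper-Pearson upper bound 1.78%, above the mesenchymal share). Muscle had a Shh UMI in 4 of 1089 cells, although its cells were deeper (library medians of 9760 to 16660 UMIs, against 6611 to 9807 in mesenchyme), and dorso-ventral ectoderm in 1 of 301. Keratinocytes had one in 2 of 145 cells (1.38%, 0.167 to 4.89), an interval that holds the mesenchymal share.

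By library, mesenchymal Shh reached 2.01 CPM in Dup hindlimb (62 UMIs) and 2.67 CPM in C57BL/6 wild-type hindlimb (51 UMIs). It was 4.08 CPM in Inv1 hindlimb (210 UMIs) and 8.23 CPM in G4 wild-type hindlimb (416 UMIs). In forelimbs it was 0.95 CPM in Inv1 (34 UMIs) and 2.31 CPM in G4 wild type (54 UMIs). The G4 wild-type hindlimb thus stood at the top of the 6 libraries and the Inv1 forelimb at the bottom, and within each pair the mutant library was the lower one. Both the share of Shh-positive cells and the UMIs per positive cell entered these levels. In hindlimb 84 Inv1 cells were positive against 159 G4 cells (1.56% against 3.06%, and 0.781% against 1.89% after every cell was thinned to 4000 UMIs), with a mean of 2.50 and 2.62 UMIs per positive cell. In forelimb 29 Inv1 cells and 27 G4 cells were positive (0.869% and 1.05%), and the mean per positive cell was 1.17 in Inv1 and 2.0 in G4. Dup had 40 positive cells (0.941%) at a mean of 1.55 UMIs, against 19 (0.938%) at 2.68 UMIs in the C57BL/6 wild type.

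**Figure D1:**
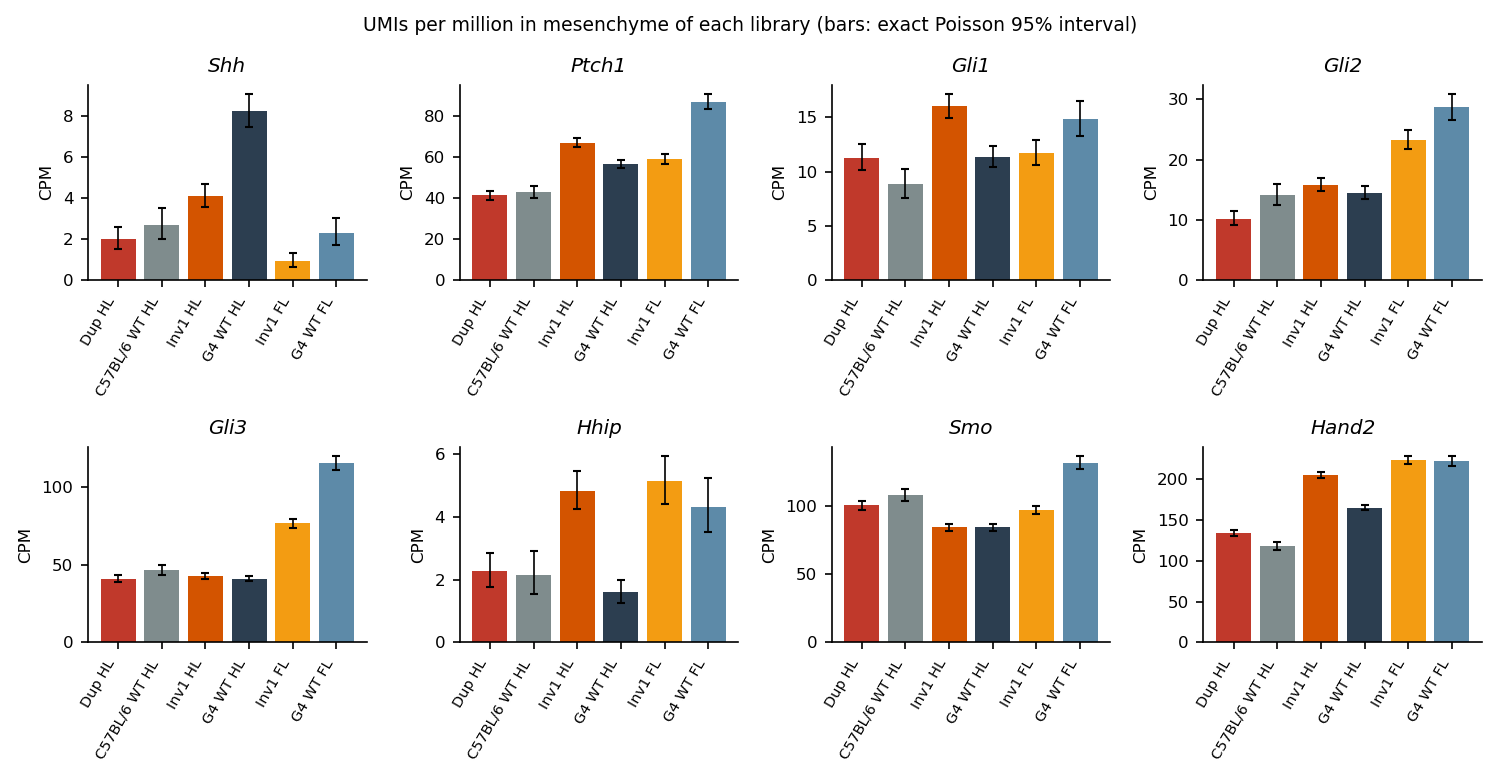
Level of each of the 8 genes in mesenchyme, in CPM, for the 6 libraries, each mutant library left of its wild type. Bars are 1 library each and error bars are exact Poisson 95% intervals (counting error only). Shh lies at 0.95 CPM in the Inv1 forelimb and reaches 8.23 CPM in the G4 wild-type hindlimb.

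Ptch1, which encodes the receptor and is a transcriptional readout of the pathway, was present in mesenchyme of every library. Its level was 41.3 CPM in Dup and 43.1 in C57BL/6 wild-type hindlimb, 67.0 in Inv1 and 56.7 in G4 wild-type hindlimb, and 58.9 in Inv1 and 87.0 in G4 wild-type forelimb. The order of the libraries was not that of Shh, since the G4 forelimb led for Ptch1. Over libraries the median class level was 57.8 CPM in mesenchyme (range 41.3 to 87.0), 74.7 in dorso-ventral ectoderm (28.1 to 199), 54.9 in AER, 28.9 in muscle, 22.0 in endothelium and 16.8 in immune cells. The ectoderm values rest on 11 to 95 cells per library. A Ptch1 UMI was detected in 32.6% of mesenchyme cells and 40.2% of dorso-ventral ectoderm cells.

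Gli1, the activator that is itself a target, had 11.3 CPM in Dup and 8.84 in C57BL/6 wild-type hindlimb mesenchyme, 16.0 in Inv1 and 11.4 in G4 wild-type hindlimb, and 11.7 in Inv1 and 14.8 in G4 wild-type forelimb. Its median was 11.54 CPM in mesenchyme and 9.83 in muscle, and AER cells held 4 Gli1 UMIs in 205 cells. Hhip, the decoy that binds ligand at the cell surface, was the scarcest member after Shh by share of cells, with a UMI in 2.71% of mesenchyme and 6.34% of muscle cells. Its mesenchymal level was 2.26 CPM in Dup and 2.15 in C57BL/6 wild-type hindlimb, 4.84 in Inv1 and 1.60 in G4 wild-type hindlimb, and 5.14 in Inv1 and 4.32 in G4 wild-type forelimb. Unlike Ptch1, Hhip was close to undetected in ectoderm, with 1 UMI in AER cells and 3 UMIs in dorso-ventral ectoderm cells of all libraries together.

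Smo, the transducer, was spread widely over the classes. Its median was 98.8 CPM in mesenchyme (84.5 to 132), 93.6 in AER, 80.2 in dorso-ventral ectoderm, 76.0 in muscle, 46.8 in endothelium and 35.6 in immune cells. Gli2, the main GLI activator in many tissues, ran from 10.2 CPM in the Dup hindlimb to 28.7 CPM in the G4 wild-type forelimb (median 15.2), with 13.8 CPM in dorso-ventral ectoderm and 2 UMIs in 185 endothelial cells. Gli3, the main repressor in the limb bud, was at 40.9 to 46.5 CPM in the 4 hindlimb libraries, at 76.6 CPM in the Inv1 forelimb and at 115.3 CPM in the G4 wild-type forelimb. Hand2 was mostly a transcript of mesenchyme. It was at a median of 185 CPM there (118 to 223; a UMI in 60.2% of cells) and at 12.9 CPM in AER, 7.34 in dorso-ventral ectoderm, 8.08 in muscle and 13.2 in endothelium.

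Within Dup and C57BL/6 mesenchyme the members separated along the proximal-distal classes. Shh was concentrated in autopod mesenchyme, the distal hand and foot plate, at 4.18 CPM in Dup (Poisson 95% interval 3.11 to 5.52; 32 of 1468 cells) and 12.9 CPM in C57BL/6 wild type (9.33 to 17.4; 13 of 326 cells). Stylopod mesenchyme, the proximal part, held 1 Shh UMI in each library, and muscle connective tissue held 0 in both. Ptch1 stepped down from distal to proximal, with 52.6, 37.4 and 20.0 CPM in autopod, zeugopod and stylopod mesenchyme of Dup and 70.7, 47.6 and 23.8 CPM in those of the C57BL/6 wild type. Gli1 had the same order, at 15.6, 9.43 and 5.14 CPM in Dup and 15.3, 10.3 and 6.06 CPM in C57BL/6 wild type. Hand2 was at 157 and 167 CPM in autopod and zeugopod of Dup and at 168 and 149 CPM in those of the wild type, against 56.7 CPM in Dup and 77.2 CPM in the wild type in stylopod. Both libraries placed Shh, Ptch1, Gli1 and Hand2 at their lowest among these 3 mesenchyme classes in the stylopod. In autopod and stylopod chondrocyte progenitors, Ptch1 was at 64.4 and 65.5 CPM in Dup and at 89.5 and 26.8 CPM in the wild type. Gli1 was at 14.1 and 15.5 CPM there in Dup and at 7.87 and 1.53 CPM in the wild type.

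Gli2 and Gli3 ran differently. In autopod mesenchyme Gli2 was at 6.36 CPM in Dup and 9.29 CPM in C57BL/6 wild type, the lowest of the 6 finer classes in each library, and its highest values, in muscle connective tissue, were 16.8 CPM in Dup and 25.2 CPM in wild type. Gli3 in autopod mesenchyme was at 34.5 CPM in Dup and 34.2 CPM in wild type, and in zeugopod mesenchyme at 46.9 CPM in Dup and 54.5 CPM in wild type. Smo stayed between 95.9 and 112 CPM in Dup and between 97.4 and 117 CPM in C57BL/6 wild type across all 6 finer classes. In the libraries without finer classes, a UMI of Hoxd13 or Hoxa13, which mark the autopod, served as a stand-in, chosen after seeing the data. In such cells Ptch1 was at 50.1 to 98.7 CPM over the 6 libraries, against 24.1 to 55.0 CPM in cells with a Meis1 or Meis2 UMI and neither Hox gene, and it was the higher of the 2 in each library.

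**Figure D2:**
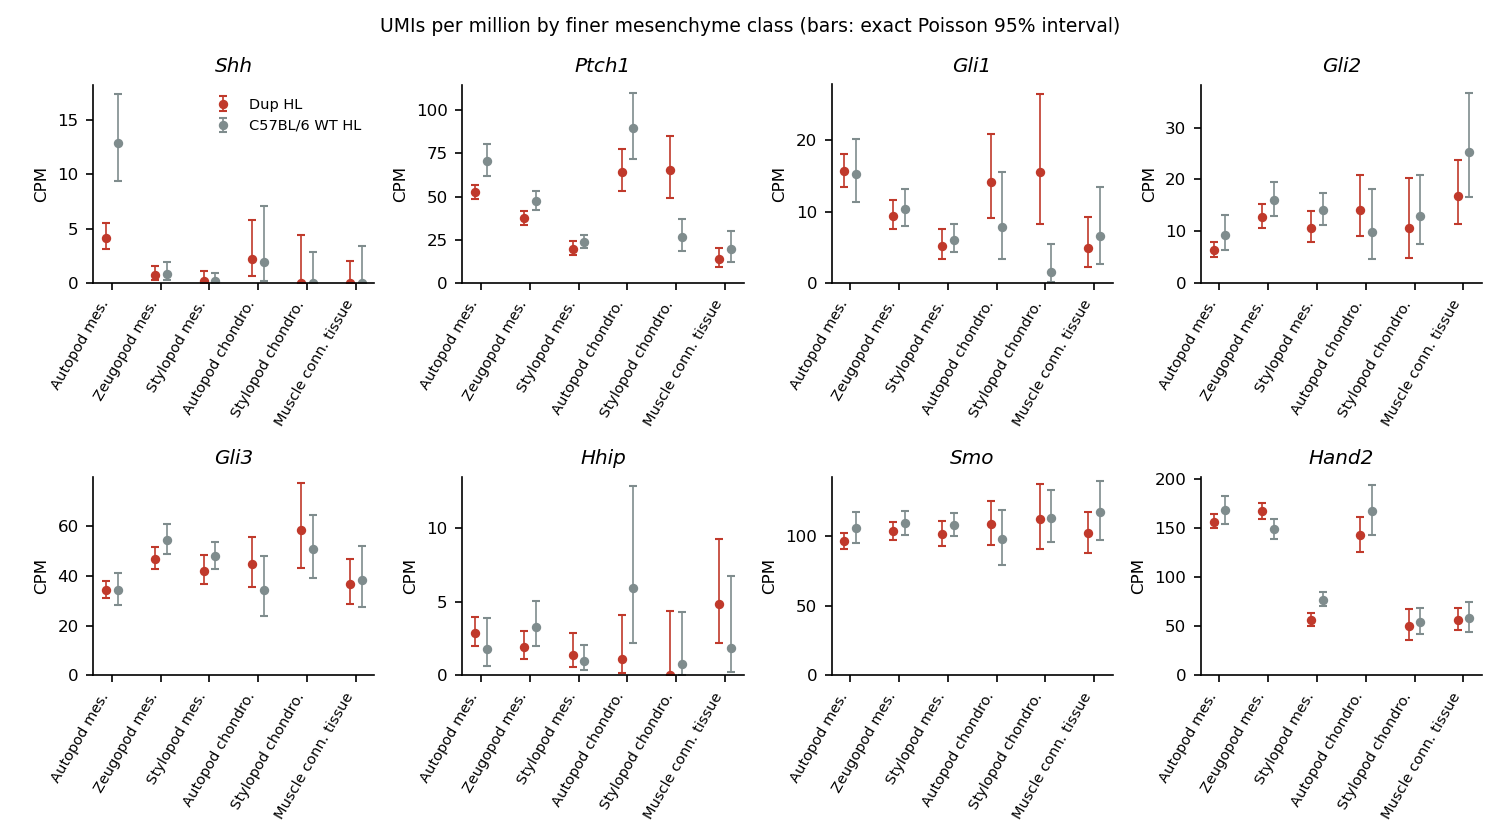
Level of the 8 genes in the 6 finer mesenchyme classes, in CPM, with Dup left of C57BL/6 wild type in each class and exact Poisson 95% intervals as bars. Shh stands at 4.18 CPM in Dup and 12.9 CPM in wild type in autopod mesenchyme, and Smo is level across classes. Ptch1 and Gli1 decline from autopod through zeugopod to stylopod mesenchyme, an order that does not extend to the chondrocyte progenitors of Dup.

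The question of which members accompany the ligand in the same cells was addressed in the 358 Shh-positive mesenchyme cells. The counts of Shh-positive and Shh-negative mesenchyme cells were summed per library and compared over the 6 libraries with edgeR's quasi-likelihood test, with library as block and Shh itself left out. The libraries differ in limb, strain and genotype, so the test asks what they share. Of 13412 genes tested, 933 were higher (6.96%) and 1489 lower (11.1%; 18.1% in either direction) in Shh-positive cells at a Benjamini-Hochberg adjusted p below 0.05. The calls depended on the size of the Shh-positive sums: without the G4 wild-type hindlimb, which holds 159 of the 358 cells, 565 genes were higher and 880 lower. Shh-positive cells were also deeper, with medians of 8460 to 15022 UMIs against 6595 to 9774 in Shh-negative cells, and with all cells thinned to 4000 UMIs 387 genes were higher and 801 lower. Of the 7 members tested, 2 were higher, 2 lower and 3 did not pass.

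Ptch1 was higher in Shh-positive cells. Its levels there were 72.5 CPM in Dup, 103 in C57BL/6 wild type, 118 in Inv1 and 123 in G4 wild-type hindlimb, and 112 in Inv1 and 184 in G4 wild-type forelimb. In Shh-negative cells of the same libraries they were 41.0, 42.4, 66.0, 54.1, 58.3 and 85.5 CPM. Each library was thus higher among its own Shh-positive cells (6 of 6), although the lowest Shh-positive value lay below the highest Shh-negative one. The log2 fold change was 1.02 (SE 0.09, edgeR adjusted p = 3.1e-27), a 2.03-fold difference, and it was 0.95 in thinned cells and 0.78 among cells with a Hoxd13 or Hoxa13 UMI. Hand2, the activator upstream of Shh, was also higher, by 0.53 (SE 0.07, edgeR adjusted p = 2.9e-14). It had 206, 237, 270.2, 271, 226 and 333 CPM in Shh-positive cells, in the same library order, against 133, 117, 204, 161, 223 and 219.9 CPM in Shh-negative cells. The difference was in the same direction in 6 of 6 libraries, and it was smallest in the Inv1 forelimb.

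Gli2 was the member with the largest difference, and it was lower. Its levels in Shh-positive cells were 0, 4.47, 4.22, 4.69, 6.84 and 8.92 CPM in the order above, against 10.3, 14.3, 16.1, 14.9, 23.5 and 29.0 CPM in Shh-negative cells. Each library was lower among its own Shh-positive cells. The Shh-positive values rest on 20 Gli2 UMIs in all. The log2 fold change was -1.84 (SE 0.28, edgeR adjusted p = 2.8e-09), and it was -1.55 in thinned cells and -1.60 among cells with a Hoxd13 or Hoxa13 UMI. Gli3, the repressor gene, was lower by a smaller amount. Shh-positive cells held 39, 40.3, 32.7, 29.7, 61.5 and 74.3 CPM of Gli3, against 40.9, 46.6, 43.0, 41.4, 76.7 and 116 CPM in Shh-negative cells. All 6 libraries had the lower value in Shh-positive cells while the 2 ranges overlapped, and the log2 fold change was -0.42 (SE 0.12, edgeR adjusted p = 0.0057). This call did not hold in DESeq2 (adjusted p = 0.070), without the library block (edgeR adjusted p = 0.36) or without the G4 wild-type hindlimb (edgeR adjusted p = 0.064), and the difference was larger in thinned cells, at -0.87 (edgeR adjusted p = 0.0018).

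Gli1, Hhip and Smo did not pass. Gli1 had 16.7, 13.4, 23.2, 13, 6.84 and 14.9 CPM in Shh-positive cells against 11.2, 8.79, 15.9, 11.3, 11.8 and 14.8 CPM in Shh-negative cells, a log2 difference of 0.26 (SE 0.21, edgeR adjusted p = 0.46) that became -0.03 in thinned cells. Hhip rested on 14 UMIs in Shh-positive cells and had a log2 difference of 0.16 (SE 0.44, edgeR adjusted p = 0.87), which leaves a wide margin at this depth. Smo differed by 0.03 (SE 0.09, edgeR adjusted p = 0.89), with 71.8 to 116 CPM in Shh-positive and 83.6 to 132 CPM in Shh-negative cells. The 3 target genes of the pathway were therefore not called together: of Ptch1, Gli1 and Hhip, Ptch1 alone passed. No member passed a test of this contrast between forelimb and hindlimb (edgeR interaction, adjusted p between 0.697 and 1, 14 genes past the threshold over all genes). The forelimb side rests on 29 Inv1 and 27 G4 Shh-positive cells, too few to show that no difference exists. The log2 effects of forelimb minus hindlimb were -0.75 for Gli1 and 0.42 for Hhip.

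**Figure D3:**
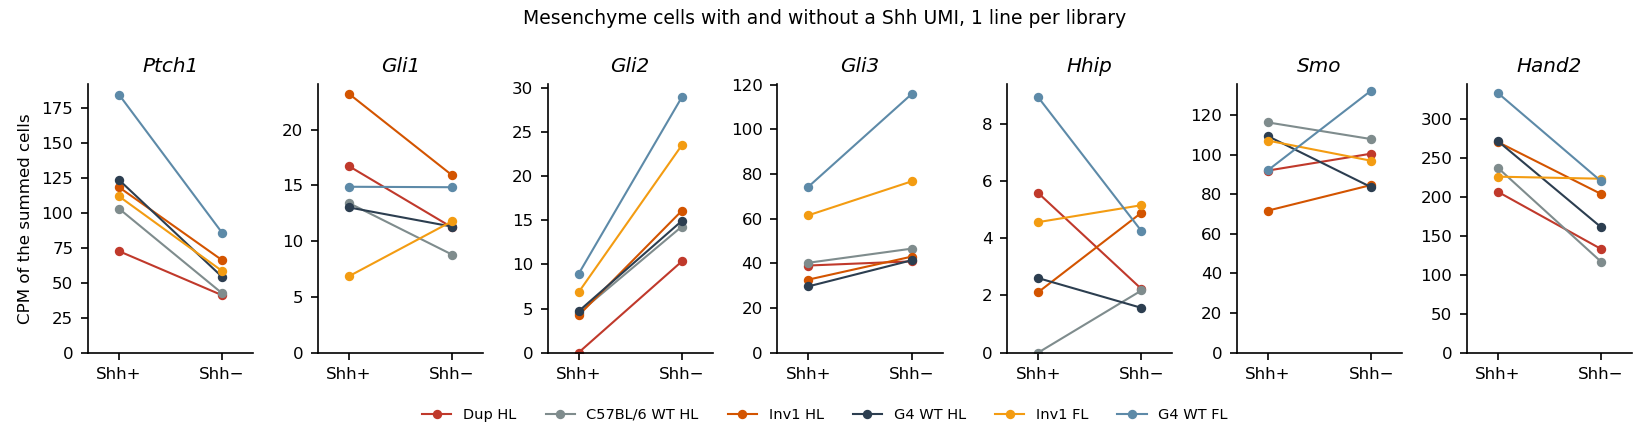
Level of the 7 other members in Shh-positive (left) and Shh-negative (right) mesenchyme cells of each library, in CPM, with a line joining the values of 1 library. Ptch1 and Hand2 are higher in Shh-positive cells of all 6 libraries, Gli2 and Gli3 are lower in all 6, and Gli1, Hhip and Smo cross.

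Cell by cell, 324 of the 358 Shh-positive cells (90.5%) also had a Hand2 UMI, 233 a Smo UMI, 217 a Ptch1 UMI, 122 a Gli3 UMI, 54 a Gli1 UMI, 19 a Gli2 UMI and 13 a Hhip UMI. Both Hand2 and Ptch1 were detected in 204 cells, and both Ptch1 and Gli1 in 39. None of the targets Ptch1, Gli1 and Hhip was detected in 125 (34.9%), which ranged from 11.1% in the G4 wild-type forelimb to 52.5% in Dup. Ptch1 was detected in 42.5% to 88.9% of Shh-positive against 22.5% to 39.2% of Shh-negative cells, and in 24.1% to 52.6% against 14.7% to 24.2% after thinning to 4000 UMIs, higher in 6 of 6 libraries. Hand2 was detected in 84.2% to 96.3% against 47.6% to 71.8%, and after thinning in 44.8% to 76.9% against 31.9% to 50.2%, higher in 5 of 6. For Gli1 the thinned shares were 0% to 8.33% against 3.24% to 6.19%, higher in 2 of 6.

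The same view was taken of the members among themselves, over all thinned mesenchyme cells. Co-detection is given as the number of cells with both genes over the number that the 2 shares would give if the genes were independent within each library. Shh and Ptch1 were found together in 69 cells against 37.2 under independence (ratio 1.86, above 1 in 6 of 6 libraries), Shh and Hand2 in 131 against 83.4 (1.57, 5 of 6), and Shh and Gli3 in 21 against 33.8 (0.621, 0 of 6). The 3 targets accompanied each other: Ptch1 with Gli1 in 345 cells against 203 (1.70), Ptch1 with Hhip in 99 against 55.9 (1.77) and Gli1 with Hhip in 33 against 14.4 (2.29), each above 1 in 6 of 6 libraries. Gli3 with Hand2 stood at 0.888 and Gli2 with Hand2 at 0.934, below 1 in each of the 6 libraries. Ptch1 with Gli3 stood at 0.993. These ratios compare cells of 1 library with each other and share its classes, so they are descriptions.

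The wider pathway in Shh-positive cells was read from a list of 31 Hedgehog genes, of which 26 were tested. Of these, 2 were higher, 9 lower and 15 did not pass, beside 6.96% higher and 11.1% lower over all genes tested. The count of higher genes was thus near the share over all genes. The median log2 fold change was -0.04 beside -0.06 over all genes tested. Of the 9 lower genes, 6 remained lower among cells with a Hoxd13 or Hoxa13 UMI, and 5 without the library block. The count was also 6 in thinned cells, in DESeq2 and without the G4 wild-type hindlimb. Besides Ptch1, the higher gene was Scube1 (0.83, SE 0.12, edgeR adjusted p = 4.3e-11), which encodes a secreted protein of the family that helps to release ligand. The lower genes included the co-receptor genes Boc, Gas1 and Cdon, whose proteins help cells to receive Shh. Boc had 3 UMIs in Shh-positive cells against 4326 in Shh-negative cells, a pooled CPM ratio of 0.0340 (exact conditional interval 0.00700 to 0.0994). Gas1 averaged 103 CPM against 288 CPM (log2 fold change -1.61, SE 0.08, edgeR adjusted p = 1.2e-87), lower in 6 of 6 libraries, and Cdon 18 CPM against 26.7 CPM (-0.79, SE 0.19, edgeR adjusted p = 0.00037). Gpc3, a glypican that restrains Hedgehog ligands, was lower by a log2 fold change of -0.46, and Scube3, Kif3a (a cilium motor) and Spop (a ubiquitin ligase adaptor for GLI proteins) were at -1.10, -0.43 and -0.37. Among the genes that did not pass were Sufu (-0.02), which holds GLI proteins in the cytoplasm, Kif7 (-0.17), Prkaca (-0.11), Gsk3b (-0.13) and Hhat (0.80, edgeR adjusted p = 0.056), the acyltransferase that lipidates the ligand.

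**Figure D4:**
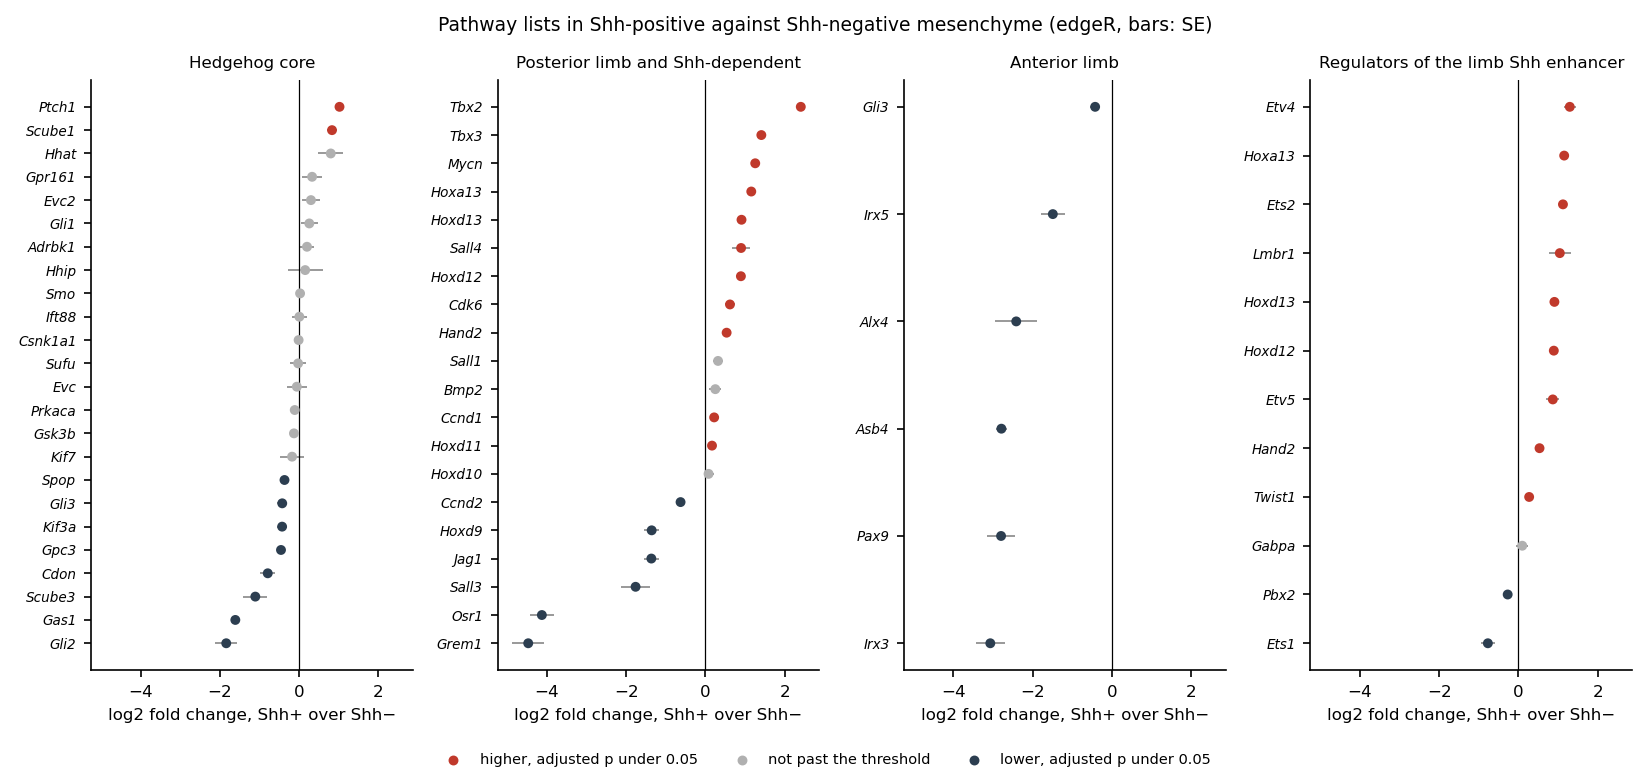
Log2 fold change (Shh-positive over Shh-negative mesenchyme, edgeR) of the genes of 4 lists, with bars of 1 SE. Red points are higher and dark points lower at an adjusted p below 0.05, grey points did not pass. Boc, Alx1, Hand1 and Gata6, with 3 or fewer UMIs in Shh-positive cells, are not drawn, and neither are listed genes that are not reported here. Anterior genes lie at or below 0, while posterior genes lie on both sides.

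Posterior limb genes, many of them known to depend on Shh, were on both sides. Of 20 tested, 11 were higher, 6 lower and 3 did not pass (median 0.28), beside 6.96% higher and 11.1% lower over all genes tested. Of the 11, 7 remained higher without the library block, 8 in thinned cells and 9 among cells with a Hoxd13 or Hoxa13 UMI. Higher were Tbx2 (2.41) and Tbx3 (1.41), T-box factors of the limb margins, Mycn (1.26), Hoxa13 (1.16), Hoxd13 (0.91), Hoxd12 (0.89), Sall4 (0.90), Cdk6 (0.62), Ccnd1 (0.22) and Hoxd11 (0.16), together with Hand2. Grem1, the BMP antagonist that links the Shh domain to the AER, was at 4 UMIs in Shh-positive cells and averaged 2.04 CPM against 21.2 CPM (log2 fold change -4.47, SE 0.41, edgeR adjusted p = 3.7e-26). Osr1 (8 UMIs, -4.13), Sall3 (-1.76), Jag1 (-1.37), Hoxd9 (-1.36) and Ccnd2 (-0.63) were lower as well. Of 10 anterior limb genes, 0 were higher and 8 lower (median -2.44), beside 6.96% higher and 11.1% lower over all genes tested. Of those 8, 5 remained lower without the G4 wild-type hindlimb, 5 in thinned cells, 4 in DESeq2, 3 among cells with a Hoxd13 or Hoxa13 UMI and 2 without the library block. Among the 8 were the transcription factor genes Irx3 (-3.07), Pax9 (-2.80), Alx4 (-2.42) and Irx5 (-1.49). Hand1, which had 1 UMI in Shh-positive cells, did not pass.

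Of 14 genes linked to the limb enhancer of Shh, 9 were higher, 4 lower and 1 did not pass (median 0.70), beside 6.96% higher and 11.1% lower over all genes tested. The 9 higher genes all kept the call without the G4 wild-type hindlimb, and 7 of them did without the library block. Of the 4 lower genes, 1 kept it without the G4 wild-type hindlimb, 2 without the Inv1 hindlimb, 2 in thinned cells, 1 in DESeq2, 1 among cells with a Hoxd13 or Hoxa13 UMI and 0 without the library block. The ETS factor genes went apart: Etv4 (1.3, SE 0.14), Ets2 (1.13, SE 0.08) and Etv5 (0.87, SE 0.16) were higher, Ets1 was lower (-0.77, SE 0.18) and Gabpa (0.10) did not pass. Lmbr1, listed as a neighbour of Shh on the chromosome rather than as a factor gene, was counted among the 9 higher (1.05, SE 0.28, 45 UMIs). Pbx2 was lower (-0.27), and Gata6 had 0 UMIs in Shh-positive cells against 234 in Shh-negative cells, at least 1.59-fold lower with a floor of 3 counts over the group, and with an upper limit of 0.778 on the CPM ratio by the exact conditional interval. Hand2, Hoxd12, Hoxd13, Hoxa13 and Gli3 each stand in more than 1 of these lists, so the counts overlap.

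Most Shh-positive cells were distal. Of the 40 in Dup and 19 in C57BL/6 wild type, 32 and 13 were autopod mesenchyme, and 1 and 2 were autopod chondrocyte progenitors. The zeugopod mesenchyme held 6 and 3, and the stylopod mesenchyme 1 in each library. A Hoxd13 or Hoxa13 UMI was detected, without thinning, in 89.5% to 100% of Shh-positive against 33.9% to 73.5% of Shh-negative cells. Such a UMI was also found in 39.3% of Dup and 31.3% of C57BL/6 zeugopod mesenchyme cells. The summed level of 6 autopod markers was 1291 to 2747 CPM in Shh-positive against 476 to 1277 CPM in Shh-negative cells. All 6 autopod markers were higher, while the 4 stylopod markers and the 6 muscle connective tissue markers were all lower, beside 6.96% higher and 11.1% lower over all genes tested. Of the 3 zeugopod markers, 1 was higher and 2 lower. Of the 8 limb mesenchyme markers, 3 were higher and 4 lower, and of the 7 chondrocyte progenitor markers, 0 were higher and 4 lower. Restricting both groups to cells with a Hoxd13 or Hoxa13 UMI left 521 genes higher and 723 lower. Of other sources of Shh, notochord, floor plate and endoderm, 2 of the 6 marker genes had a row. Shh-positive cells held 0 UMIs of T and 1 UMI of Sox17, against 44 and 59 in the far larger Shh-negative sums. Such counts are too low to tell the 2 groups apart. These 2 genes summed to 78.7 to 197 CPM in endothelium, so they are not particular to those sources here. Muscle markers summed to 2.08 to 17.9 CPM in Shh-positive against 2.98 to 14.4 CPM in Shh-negative cells, with 0 of the 4 tested genes higher and 1 lower. Of the 5 neuron or glia markers, 4 were tested and 2 were higher, Tubb3 (log2 fold change 0.98, 24.9 against 10.9 CPM), a tubulin gene of neurons, and Dct (1.68, 12 UMIs in Shh-positive cells), a gene of pigment cells, with 0 lower. Their sum was 21.3 to 41.6 CPM in Shh-positive against 12.5 to 19.7 CPM in Shh-negative cells, higher in each of the 6 libraries, and Sox10, the defining glial gene, had 0 UMIs in Shh-positive cells. The part of these markers in the other differences was not tested.

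The genes with the largest differences in Shh-positive cells, among those with 20 CPM or more there and the same sign in each library, were led by Cck, a neuropeptide precursor gene. Cck averaged 36.9 CPM against 0.607 CPM (log2 fold change 5.57, SE 0.28, edgeR adjusted p = 5.5e-85), with 132 UMIs in the 358 Shh-positive cells and 129 in all Shh-negative cells, and ranged from 1.06 CPM in the Inv1 hindlimb to 100.4 CPM in Dup. Tbx2 averaged 151 against 29.0 CPM, Tcfap2b 161 against 30.6 CPM (2.31), Bmp4 199 against 44.1 CPM (2.18), Lmo2 98.5 against 22.2 CPM (2.17) and the homeobox gene Evx1 34.3 against 6.83 CPM (2.33). Pmaip1, a proapoptotic gene, averaged 127 against 36.7 CPM (1.92), and Spry4, a feedback gene of FGF signalling, 49.9 against 13.3 CPM (1.86). ENSMUSG00000112117, 5730457N03Rik, Bcas3, Slc16a10, Fzd10, Tcfap2a and Tmem173 completed the 15 highest, with log2 fold changes of 1.70 to 2.9. The 5 lowest were Asb4 (24.9 against 114.6 CPM), the collagen genes Col1a2 (49.4 against 209 CPM) and Col2a1 (28.9 against 124 CPM), Zfhx4 and Ebf1 (155 against 676 CPM), at -2.24 to -2.79. All of these kept their sign and their adjusted p below 0.05 in every alternative tried.

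The comparison between mutant and wild-type libraries asks whether the rearrangements went with a different level of the pathway in mesenchyme. Ratios are of CPM, with exact conditional binomial 95% intervals for counting error. These intervals take each UMI as independent. Shh UMIs lay in few cells, with up to 13 in 1 cell, so for Shh the intervals are too narrow even for sampling error. The median log2 ratio of all genes with a mean of 5 CPM or more was -0.08 for Dup over C57BL/6, 0.05 for Inv1 over G4 in hindlimb, -0.18 for Inv1 over G4 in forelimb, -0.11 for G4 over C57BL/6 wild-type hindlimb and 0.37 for G4 forelimb over G4 hindlimb, so ratios of whole mesenchyme are also given relative to that median in the 3 pairs where the shift was over 0.1.

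In hindlimb, Inv1 had a lower level of Shh and higher levels of its target genes than G4 wild type. Shh was at 4.08 CPM against 8.23 CPM (ratio 0.495, 0.418 to 0.586). Ptch1 was at 67.0 against 56.7 CPM (1.18, 1.12 to 1.24), Gli1 at 16.0 against 11.4 CPM (1.41, 1.27 to 1.57), and Hhip at 4.84 against 1.60 CPM, 249 against 81 UMIs (3.02, 2.34 to 3.93). Hand2 was at 205 against 165 CPM (1.24, 1.21 to 1.28), while the intervals of Gli2 (1.09), Gli3 (1.05) and Smo (0.999) included 1. Past a fold of 1.5, the members at 5 CPM or more gave 1 of 7, Shh, beside 1.26% of all such genes. Hhip lies below 5 CPM, where 6.11% of genes with a mean of 1 to 5 CPM were past the fold upward. The share of mesenchyme cells with a Hoxd13 or Hoxa13 UMI was 61.8% in Inv1 and 45.2% in G4. Within those cells the ratio was 0.397 for Shh (0.334 to 0.471), 1.00 for Ptch1, 1.23 for Gli1 and 2.95 for Hhip.

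In forelimb, Shh was again lower in Inv1 than in G4 wild type, at 0.95 against 2.31 CPM (ratio 0.412, 0.260 to 0.644, and 0.466 relative to the median of all genes). The UMIs behind this ratio lay in 29 of 3337 Inv1 cells (34 UMIs) and 27 of 2570 G4 cells (54 UMIs). Ptch1 and Gli1 were lower too in Inv1 forelimb, while the interval of Hhip included 1. Ptch1 was at 58.9 against 87.0 CPM (0.678, 0.637 to 0.720; 0.766 relative to the median), Gli1 at 11.7 against 14.8 CPM (0.790, 0.683 to 0.913; 0.893 relative) and Hhip at 5.14 against 4.32 CPM (1.19, 0.930 to 1.53; 1.35 relative). Gli3 was at 76.6 against 115.3 CPM (0.664, 0.630 to 0.701; 0.751 relative), the 1 of 6 members at 5 CPM or more past a fold of 1.5, beside 10.4% of all such genes. Shh has a mean below 5 CPM in this pair, where 18.7% of genes with a mean of 1 to 5 CPM were past the fold downward. Hand2 had a ratio of 1.01 (1.14 relative), Smo of 0.736 (0.833 relative) and Gli2 of 0.813 (0.920 relative). Among cells with a Hoxd13 or Hoxa13 UMI, which were 73.7% of Inv1 and 64.9% of G4 mesenchyme, the ratio was 0.381 for Shh, 0.636 for Ptch1 and 0.712 for Gli1.

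Outside mesenchyme, the Ptch1 ratio of Inv1 over G4 had the same directions in muscle, at 1.46 in hindlimb (1.12 to 1.91) and 0.575 in forelimb, and so did Gli1, at 1.82 and 0.423. In dorso-ventral ectoderm Ptch1 was lower in Inv1 in both limbs. In hindlimb it was at 73.8 CPM in Inv1 and 119.9 CPM in G4 (75 and 93 UMIs; ratio 0.615, 0.448 to 0.843). In forelimb it was at 28.1 CPM in Inv1 and 199 CPM in G4 (16 and 53 UMIs; ratio 0.141, 0.0753 to 0.251). These ectoderm values come from 95 and 64 cells in hindlimb and from 45 and 24 cells in forelimb.

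**Figure D5:**
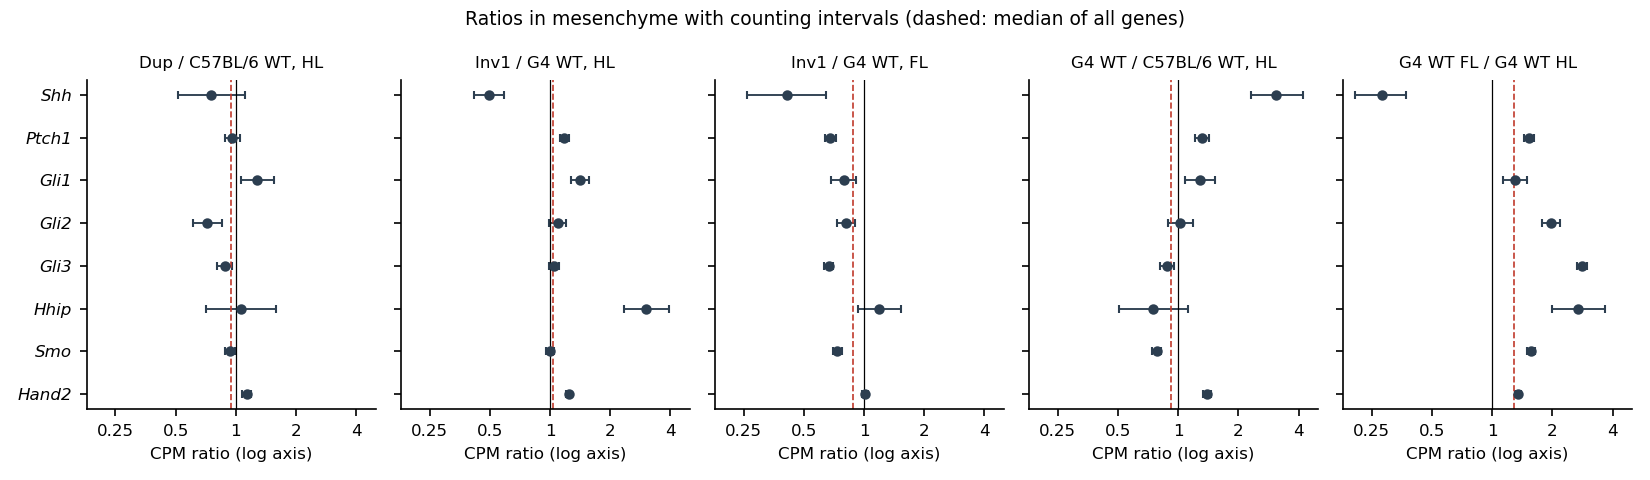
Ratio of CPM in mesenchyme for the 8 genes in the 5 pairs of libraries, on a log axis, with exact conditional 95% intervals (counting error only). The solid line marks 1 and the dashed red line the median of all genes in that pair. Shh lies below 1 in all 3 mutant pairs, with an interval that includes 1 in Dup, and Ptch1 and Gli1 lie above 1 for Inv1 in hindlimb and below 1 in forelimb.

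In Dup over C57BL/6 hindlimb, 0 of the 6 members at 5 CPM or more passed a fold of 1.5, beside 3.39% of all such genes. Shh was at 2.01 against 2.67 CPM (ratio 0.752, 0.510 to 1.11), a difference within counting error. Gli1 was at 11.3 against 8.84 CPM (1.28, 1.06 to 1.54), Gli2 at 10.2 against 14.2 CPM (0.721, 0.611 to 0.851) and Gli3 at 40.9 against 46.5 CPM (0.879, 0.806 to 0.959), while Ptch1 (0.960), Hhip (1.06) and Smo (0.930) stood near 1 and Hand2 was at 1.13 (1.08 to 1.19). The 2 libraries differed in their makeup, with autopod mesenchyme making up 34.5% of mesenchyme cells in Dup and 16.1% in the wild type, and stylopod 18.2% and 34.0%. Within autopod mesenchyme the ratio of Shh was 0.325 (0.212 to 0.5) and that of Ptch1 0.744 (0.640 to 0.868). Ptch1 was also below 1 in zeugopod (0.785, 0.671 to 0.920) and in autopod chondrocyte progenitors (0.719, 0.541 to 0.958), and above 1 in stylopod chondrocyte progenitors (2.44, 1.57 to 3.84; 55 against 35 UMIs). Gli1 in that last class rested on 13 UMIs in Dup and 2 in the wild type (10.1, 2.29 to 92.2). With the finer classes weighted equally the Shh ratio was 0.466, and with over 3000 detected genes per cell it was 1.74, so its direction in whole mesenchyme depended on the cells taken.

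The wild-type libraries show how far these genes differed with no rearrangement, though 1 pair differs in strain and the other in limb. Their makeup differed too. A Hoxd13 or Hoxa13 UMI was found in 34.4% of C57BL/6 hindlimb, 45.2% of G4 hindlimb and 64.9% of G4 forelimb mesenchyme cells. For G4 over C57BL/6 in hindlimb, 1 of 7 members at 5 CPM or more was past a fold of 1.5, beside 9.02% of genes. That member was Shh, at 8.23 CPM in G4 against 2.67 CPM in C57BL/6 (ratio 3.09, 2.30 to 4.21; 3.34 relative to the median), a larger ratio than that of either mutant pair in hindlimb. Ptch1 was 1.32 (1.42 relative), Gli1 1.28 (1.39 relative) and Hand2 1.40 (1.51 relative). Between G4 forelimb and hindlimb, 5 of 7 members were past the fold, beside 33.9% of genes. Shh was lower in forelimb (0.280, 0.207 to 0.373; 0.218 relative to the median) and Gli3 higher (2.82, 2.66 to 2.98; 2.19 relative), with Ptch1 at 1.53 (1.19 relative) and Gli2 at 1.97 (1.53 relative). With 1 library per group, a genotype difference of such a size cannot be told apart from a difference between single libraries.

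Lists of pathway genes, which include members already given above, were read in the same pairs. Counts of the Hedgehog list stand beside the share of all genes past 1.5-fold in that direction. Of the 31 Hedgehog genes, 23 were measured in Dup, with 0 higher (background 0.876%) and 4 lower (2.51%). In the Inv1 hindlimb pair 24 were measured, with 0 higher (0.759%) and 1 lower (0.499%), and in the Inv1 forelimb pair 24, with 0 higher (0.564%) and 5 lower (9.82%). The 1 lower gene in the Inv1 hindlimb pair was Shh itself, and the 5 in the Inv1 forelimb pair included Gli3. The anterior genes, which oppose or lie away from the Shh domain, had log2 medians of -0.88 in Dup (4 of 7 measured lower), -0.30 in Inv1 hindlimb (2 of 7) and -1.0 in Inv1 forelimb (5 of 7, and 1 higher). The posterior list, with 20 genes measured in each pair, had log2 medians of -0.03, 0.17 and -0.24 in the same order. Of its genes, 4 were higher and 1 lower in Dup, 2 higher and 3 lower in Inv1 hindlimb, and 0 higher and 7 lower in Inv1 forelimb. These lists were not set against the makeup of the mesenchyme, which differed within each pair as given above.

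The genes whose levels most resembled each member over 35 units (a class or finer class in a library, with 30 or more cells) were named by Pearson correlation of log2(CPM + 10) among 6078 genes. Units share libraries and classes, so these are descriptions with no test. Shh was most like Hoxd12 (0.71), Hoxd13 (0.70) and Lhx2 (0.69), and Hand2 most like Prrx2 (0.97), Lhx9 (0.96) and Lhx2 (0.96), all genes of limb mesenchyme. Ptch1 was most like Grlf1 (0.71), Ext1 (0.69) and Acvr2b (0.68). The top correlations of Shh and Ptch1 were similar in size and lower than those of the other members. Gli1 was most like Nasp (0.85), Cdca7 (0.82) and Hnrnpc (0.81), Gli2 like Phip (0.82), Lpin2 (0.81) and Msh6 (0.81), and Gli3 like Hnrnpr (0.91), Ptprs (0.90) and Stag1 (0.89). Hhip stood nearest to Cited1, Shisa2 and Vash2 (0.79 each), and Smo to Zfp266 (0.92), Auts2 (0.89) and Pygo1 (0.88).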

How the data were processed

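Members and gene lists were chosen with earlier results of these data known. The authors dissociated E11.5 limb buds with trypsin, prepared droplet 3′ libraries as single replicates processed jointly, and made UMI counts with Cell Ranger version 3 on a custom mm9 reference (the submitters' processing notes also name mm10). They removed cells with few detected genes, with a high mitochondrial share or called doublets by Scrublet, and named classes from clusters and marker genes. The deposited counts are raw, and the deposited classes were used. Cells with over 2000 detected genes were kept, and no further doublet step was applied. A further 17 columns with values of samples were left out, and so was a matrix of hindlimb cells alone. The annotation release and strand setting used for counting are not given in the sources used here. Gene positions were read from GENCODE on NCBIM37, which is the assembly that mm9 presents. Of the 15668 genes in both matrices, 14528 had a symbol of their own.

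UMIs were summed per class and library and scaled to CPM, with exact Poisson intervals for levels, Clopper-Pearson intervals for shares and conditional binomial intervals for ratios, all at 95% and for counting error only. Thinning drew 4000 UMIs per cell, which left out 93 cells. Shh-positive and Shh-negative sums were compared with edgeR 4.0.16 (quasi-likelihood, TMM, filterByExpr, library as block because both sums come from the same library, adjusted p threshold 0.05). Named genes were the members, the listed genes, the 15 highest and 5 lowest in that test with 20 CPM or more in Shh-positive cells and 1 sign in all libraries (haemoglobin, Xist and Y-linked genes left out), and the 3 genes most like each member. A list is given by counts and a median over all its tested genes, and some of its genes are not reported here singly. Genes past 1.5-fold were counted at a mean of 5 CPM or more, and for members below it at 1 to 5 CPM. Log2 ratios of listed genes had 0.5 counts added. Alternatives were limits of 1000 or 3000 detected genes, median-of-ratios scaling, the mean over cells, equal weights of finer classes, a second annotation of hindlimb cells, DESeq2 1.42.0, no filter, no library block, 2 or more Shh UMIs, thinned cells, cells with a Hoxd13 or Hoxa13 UMI and leaving out each library. The Hoxd13 or Hoxa13 gate in the ratios and the 1 to 5 CPM share were added after seeing the data. Scripts ran in Python 3.11.15 and R 4.3.3 and were tested on simulated data.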

Additional observations from a re-analysis of the deposited data

Results flagged for a closer look

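For a pair of target genes, the difference between Inv1 and G4 wild-type mesenchyme pointed in opposite directions in hindlimb and forelimb, with counting intervals that exclude 1 in both limbs. Ptch1 had a ratio of 1.18 in hindlimb and 0.678 in forelimb, and Gli1 of 1.41 in hindlimb and 0.790 in forelimb. Relative to the median of all genes, the values were 1.14 and 0.766 for Ptch1 and 1.37 and 0.893 for Gli1. The difference between limbs was not tested, since each ratio compares 1 library with 1 library. Among cells with a Hoxd13 or Hoxa13 UMI, Ptch1 was at 1.00 in hindlimb and 0.636 in forelimb, so its opposite directions did not hold there, and Gli1 was at 1.23 and 0.712.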

How the results depend on the processing

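No called value changed sign under the alternatives. The Shh-positive contrast of the 7 members kept its call in 95 of 98 alternatives. The 3 that lost it were all of Gli3: -0.38 in DESeq2 (adjusted p = 0.070), -0.46 with no replicate block (adjusted p = 0.36), and -0.40 without the G4 wild-type hindlimb (adjusted p = 0.064), with a range of -0.45 to -0.37 over the libraries left out. The library block pairs the sums of the same library, and without it 243 genes were higher and 547 lower. Genes higher numbered 591 with 2 or more Shh UMIs, 387 in thinned cells, 519 at over 3000 detected genes, 521 in cells with a Hoxd13 or Hoxa13 UMI and 565 to 937 with a library left out. Genes lower numbered 659 in DESeq2, 801 in thinned cells, 836 at over 3000 detected genes, 723 in the Hoxd13 or Hoxa13 cells and 880 to 1341 with a library left out. Among the runs with a library left out, both lowest counts came without the G4 wild-type hindlimb. Shh in mesenchyme at over 3000 detected genes was 3.78 CPM in Dup, 5.06 in Inv1 hindlimb, 11.7 in G4 hindlimb and 3.03 in G4 forelimb, and as a mean over cells 6.82 in G4 hindlimb and 1.67 in G4 forelimb. The Shh ratio of Dup over C57BL/6 crossed 1, to 1.74, at over 3000 detected genes and was 0.466 with finer classes weighted equally, and that of Inv1 over G4 in hindlimb was 0.397 in cells with a Hoxd13 or Hoxa13 UMI. At a mean of 20 CPM or more, 127 genes passed 1.5-fold in Dup (main 325), 42 in Inv1 hindlimb (121) and 586 in Inv1 forelimb (1049), where median-of-ratios scaling gave 458. Other ratios and levels moved beyond their counting interval in 30 of 128 and 34 of 160 alternatives. The cause of these shifts was not tested. Depth limits Hhip, with 14 UMIs in all Shh-positive cells.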
